A study of Mus musculus with 8 samples.

Results

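The growth factor genes Igf1, Vegfa, Hbegf, Pdgfa, Pdgfb, Areg, Ereg, Tgfa, Bdnf and Gdf15 were followed in primary murine microglia with and without lipopolysaccharide (LPS), the bacterial cell wall component sensed by Toll-like receptor 4. They form a list of 10 secreted factors and were found by Ensembl identifier among the 52636 genes of the count table. Of the 10, 7 reached the level needed for a test, out of 13847 tested genes. Areg, Ereg and Bdnf did not.

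The microglia came from brains of neonatal wild-type mouse pups, labelled C57BL/6 and named C57BL/6N in the methods of the study, taken between the second and the third postnatal day. They were grown in mixed glial culture, shaken off the astrocyte layer and kept in medium with 10% serum and 10 ng/ml CSF-1, the survival factor of macrophages. Vehicle and LPS groups shared all of these conditions, and the LPS group received 5 µg/ml LPS for 24 h. Each group held 4 RNA-seq libraries, labelled as biological replicates 1 to 4. The cells are cultured neonatal microglia that have left their tissue, and every value below is a bulk value over a whole culture.

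Growth factors act on neighbouring cells through receptors at the cell surface. Insulin-like growth factor 1 and the platelet-derived growth factors support the growth and survival of oligodendrocyte lineage cells, neurons and mural cells, and vascular endothelial growth factor A drives the growth and leakiness of blood vessels. Heparin-binding EGF-like growth factor, amphiregulin, epiregulin and transforming growth factor alpha are ligands of the EGF receptor family that are made as membrane-bound precursors and cut free by metalloproteases. Brain-derived neurotrophic factor acts on neurons through TrkB, and GDF15 is a stress-induced hormone that is sensed in the hindbrain. In the brain, microglia are a known source of Igf1.

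Promoter sequence is shown for 3 of the members that changed and had an entry in the RefSeq promoter table (assembly GRCm38.p6). Gdf15 changed and had entries as well but is not shown. Areg is also shown, which stayed near the limit of detection and whose window held the most kinds of motif among the 4 shown. Each sequence is the 250 bases before the annotated transcription start, written 5′ to 3′ on the gene's own strand. The window of Igf1 is chr10:87860861-87861110 on the plus strand, that of Vegfa (1 of its annotated starts) chr17:46032378-46032627 on the minus strand, that of Tgfa chr6:86194972-86195221 on the plus strand and that of Areg chr5:91139349-91139598 on the plus strand. The Igf1 window lies inside the gene as GENCODE annotates it, which has an earlier start as well.
Igf1: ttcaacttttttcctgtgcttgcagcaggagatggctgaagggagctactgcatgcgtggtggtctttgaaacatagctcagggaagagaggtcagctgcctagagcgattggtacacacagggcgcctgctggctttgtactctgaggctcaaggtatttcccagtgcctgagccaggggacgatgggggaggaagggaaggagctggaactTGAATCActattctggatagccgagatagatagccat
Vegfa: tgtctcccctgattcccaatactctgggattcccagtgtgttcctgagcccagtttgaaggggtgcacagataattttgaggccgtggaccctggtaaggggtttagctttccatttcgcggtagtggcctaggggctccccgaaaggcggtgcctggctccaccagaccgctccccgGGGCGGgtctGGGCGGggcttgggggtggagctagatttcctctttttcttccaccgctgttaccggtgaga
Tgfa: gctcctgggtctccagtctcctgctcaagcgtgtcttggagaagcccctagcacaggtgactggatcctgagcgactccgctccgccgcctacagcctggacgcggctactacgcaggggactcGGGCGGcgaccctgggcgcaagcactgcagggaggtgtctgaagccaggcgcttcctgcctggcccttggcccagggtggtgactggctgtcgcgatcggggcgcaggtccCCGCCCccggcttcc
Areg: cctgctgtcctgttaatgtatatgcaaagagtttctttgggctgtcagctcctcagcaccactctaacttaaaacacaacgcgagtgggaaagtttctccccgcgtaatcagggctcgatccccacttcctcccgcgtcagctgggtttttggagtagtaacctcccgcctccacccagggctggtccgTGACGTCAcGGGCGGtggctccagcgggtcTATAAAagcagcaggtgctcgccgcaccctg
Capitals mark matches, on either strand, to 6 motifs. The hypoxia response core was searched as ACGTG, the AP-1 motif with the spelling TGANTCA, the cyclic AMP response element (CRE) with the spelling TGACGTCA, the GC box, which is bound by SP1, with the spelling GGGCGG, the TATA box of core promoters with the spelling TATAAA, and the shared core of C/EBP and ATF proteins with the spelling TGATGNAA. None of the motifs holds another. The Igf1 window held 1 AP-1 match, 37 to 31 bases before the start, and 6.75% of all 32851 promoters of this length held at least 1. The Vegfa window held 2 GC boxes, 72 to 67 and 62 to 57 bases before the start, and the Tgfa window held 2 as well, whereas 32.7% of all promoters held at least 1. The window of another annotated Vegfa start, not shown, held 1 GC box and a hypoxia response core, 211 to 207 bases before that start. A Gdf15 window held the hypoxia response core as well, and 16.6% of all promoters held at least 1. These Vegfa and Gdf15 windows with the hypoxia response core lie inside their genes as GENCODE annotates them, after an earlier start. The Areg window held a CRE, present in 1.55% of promoters, beside a GC box and a TATA box, present in 12.4%. These are matches of letters and were not tested as binding sites.

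Library totals lay between 20071921 and 30604447 counts. Levels are given as CPM, the count relative to the size of its library with TMM's correction for composition, and folds are log2 of LPS over vehicle from edgeR's quasi-likelihood test with its standard error (SE). TMM factors were 1.21 to 1.32 in vehicle and 0.701 to 0.833 in LPS libraries. With library totals alone, 1988 genes were higher and 8457 lower, against 4191 higher and 4686 lower with TMM, and the median fold of all tested genes shifted by -0.68. Replicates 2 and 4 were the closest libraries within each group, and LPS replicate 3 was the farthest from the others in its group, and without it the same 5 members as in the full comparison were called, at log2 folds of -5.35 for Igf1, 1.72 for Vegfa, 1.19 for Hbegf, -2.46 for Tgfa and 2.12 for Gdf15. Of 10 microglia markers, all passed the filter, with 7 lower and 1 higher after LPS and a summed level of 6234 to 8234 CPM in vehicle and 2324 to 2442 CPM in LPS libraries. Summed over each list, markers of astrocytes, oligodendrocyte lineage cells, endothelial cells, fibroblasts and neurons stood below the summed microglia markers in both groups. These sums lay at 11.2 to 205 CPM in vehicle and 5.27 to 238 CPM in LPS libraries. The highest of these sums were of oligodendrocyte markers, where Cnp rose from a mean of 88.6 to 195 CPM (log2 fold 1.14, adjusted p = 5.51e-04, edgeR). Single markers did not all keep the order of the sums. Cnp lay above the microglia marker Tmem119 in vehicle libraries (mean 9.40 CPM). In LPS libraries Cnp lay above Tmem119 (4.07 CPM), Cx3cr1 (6.43 CPM), P2ry12 (8.96 CPM) and Trem2 (13.4 CPM). The summed endothelial markers lay at 11.2 to 23.8 CPM in vehicle and 51.5 to 110 CPM in LPS libraries, where Pecam1 and Cdh5 were higher (log2 folds 4.33 and 2.98), while 5 of the 10, among them Cldn5 and Emcn at 0 counts, did not exceed 3 counts in any library. The summed astrocyte markers lay at 18.7 to 48.1 CPM in vehicle and 40.5 to 120 CPM in LPS libraries, where Gja1 was higher (log2 fold 5.79) and Gfap, Aldh1l1 and Aqp4 were lower.

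After LPS, Igf1 and Tgfa were lower and Vegfa, Hbegf and Gdf15 higher. Of the 7 tested members, 5 were called at an adjusted p under 0.05 (edgeR), 3 higher and 2 lower, where 64.1% of all tested genes were called, 30.3% higher and 33.8% lower. The groups did not overlap for 4 of the 7 members, namely Igf1, Vegfa, Hbegf and Tgfa, against 60.2% of tested genes. The share of members called therefore lay close to that of all genes, and the members are described here by their sizes and directions. Fewer cells of a type and less RNA per cell cannot be told apart in these bulk libraries.

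**Figure D1:**
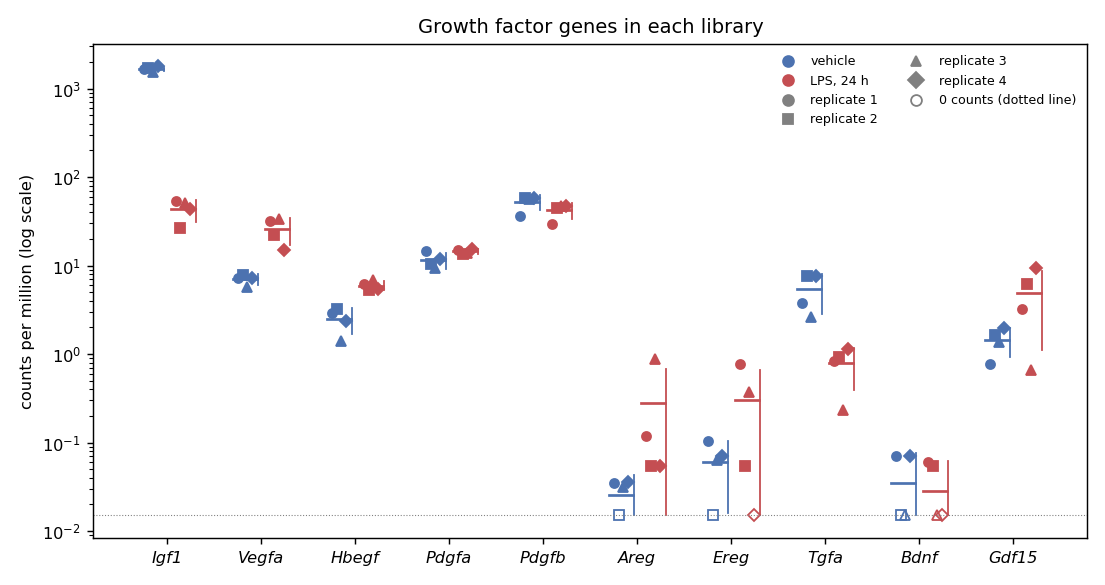
Level of each growth factor gene in CPM (log scale) in 4 vehicle (blue) and 4 LPS (red) libraries, where symbols give the replicate number, horizontal bars the mean and vertical bars the SD (cut at the dotted line), and open symbols on the dotted line are libraries with 0 counts. Igf1 went from 1679 ± 93.9 to 43.6 ± 12.3 CPM (SD, n = 4), Vegfa, Hbegf and Tgfa separated between the groups, and Areg, Ereg and Bdnf lay below 1 CPM in every library.

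Before LPS, Igf1 stood far above the other members, and after it no member stood so far apart. On the TPM scale, which divides counts by gene length so that genes can be compared within a group, the mean levels in vehicle libraries were 739 ± 89.3 for Igf1, 55.4 ± 13.3 for Pdgfb, 16.1 ± 3.20 for Pdgfa and 7.17 ± 1.31 for Vegfa (SD, n = 4). They were followed by Tgfa at 3.69 ± 1.96, Gdf15 at 3.44 ± 1.41 and Hbegf at 2.25 ± 0.791 TPM, which overlapped each other across libraries. The lowest vehicle library of Vegfa, 5.37 TPM, lay just under the highest of Tgfa, 5.42 TPM. Areg, Ereg and Bdnf came last, each with a mean below 0.1 TPM.

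In LPS libraries the order of mean TPM was Pdgfb at 25.8 ± 4.90, Vegfa at 15.2 ± 4.69, Pdgfa at 11.9 ± 1.35, Igf1 at 11.2 ± 3.00, Gdf15 at 6.90 ± 5.41 and Hbegf at 3.13 ± 0.229 (SD, n = 4). Each of these neighbours in the order overlapped the next in range across libraries. Igf1 made up 89.4% ± 0.990 of the summed TPM of the 10 members in vehicle libraries and 14.9% ± 3.94 in LPS libraries. The summed TPM of the members had a mean of 827 in vehicle and 75.1 in LPS libraries. TPM carries no TMM correction, so the size of this difference depends on the scaling. Pdgfb was the highest member in LPS replicates 2, 3 and 4, and Vegfa in replicate 1. By TPM, Igf1 ranked 117 of the 23675 genes with a count in vehicle libraries and 6246 of 21969 in LPS libraries.

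Igf1 (ENSMUSG00000020053, chromosome 10, 87858265 to 87937042, plus strand, GRCm38) encodes insulin-like growth factor 1, which signals through the IGF1 receptor to the PI3K and AKT pathway. Its level was 1660, 1714, 1559 and 1782 CPM in vehicle replicates 1 to 4 and 53.3, 26.4, 51.5 and 43.1 CPM in LPS replicates 1 to 4. The highest LPS library lay far below the lowest vehicle library. The log2 fold was -5.27 (SE 0.25, adjusted p = 2.81e-07, edgeR), a level 38.5-fold lower after LPS. The change rested on 47418 to 50183 counts per vehicle library and 485 to 1105 per LPS library. Igf1 was lower in 4 of 4 replicate numbers, with log2 differences from -4.92 to -6.01, and its log2 fold lay between -5.95 and -5.08 in 16 alternative fits.

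Proteins that carry or free IGF-1 moved unevenly. Of 12 genes of IGF binding proteins and their proteases, 6 were tested, with 2 higher, 2 lower and a median log2 fold of -0.54, beside -0.11 for all tested genes. Counts in this and every later list stand beside 30.3% higher and 33.8% lower of all tested genes. The lists were chosen with earlier results of these data known. Igfbp4, a binding protein that restrains IGF action, fell from 301 ± 57.1 to 10.1 ± 3.40 CPM (SD, n = 4; log2 fold -4.90, SE 0.28, adjusted p = 7.24e-07, edgeR). Igfbp5 fell as well (log2 fold -3.41, adjusted p = 1.33e-04, edgeR). Stc2, an inhibitor of the binding protein protease PAPP-A, rose by 3.94 on the log2 scale from 0.122 to 1.92 CPM (adjusted p = 5.06e-04, edgeR), and Igfbp7 rose by 2.64 on the log2 scale (adjusted p = 0.0146, edgeR). The receptor genes were lower too, Igf1r by a log2 fold of -1.02 (SE 0.17, adjusted p = 5.53e-04, edgeR) and the mannose 6-phosphate receptor Igf2r, which takes up and clears IGF-2, by -0.98 (adjusted p = 0.00522, edgeR). Insr, the insulin receptor, had 48.2 CPM in vehicle and 50.3 in LPS libraries.

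Vegfa (ENSMUSG00000023951, chromosome 17, 46016993 to 46032369, minus strand) was measured at 7.28, 7.85, 5.68 and 7.31 CPM in vehicle replicates 1 to 4 and at 32.3, 21.9, 33.6 and 15.1 CPM in LPS replicates 1 to 4. All LPS libraries lay above all vehicle libraries, and replicate 4 was the lowest LPS library. The mean rose from 7.03 ± 0.940 to 25.7 ± 8.79 CPM (SD, n = 4), a log2 fold of 1.87 (SE 0.25, adjusted p = 1.29e-04, edgeR), or 3.66-fold. It was higher in 4 of 4 replicate numbers, and it was called in all 16 alternative fits, at log2 folds from 1.18 to 2.07.

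Of the other VEGF ligands that were tested, Vegfb fell and Pgf rose. Vegfb, a ligand of the VEGF receptor FLT1 that is linked to cell survival more than to vessel growth, fell from 23.1 ± 2.27 to 2.74 ± 1.31 CPM (SD, n = 4; log2 fold -3.08, SE 0.30, adjusted p = 1.98e-05, edgeR). Vegfa went from 0.335, 0.350, 0.262 and 0.277 counts per Vegfb count in vehicle libraries to 17.7, 5.33, 22.9 and 4.16 in LPS libraries. On the log2 scale this ratio rose by 5.00, and the groups did not overlap. The exact permutation test over the 70 divisions gave p = 0.0286, the smallest that 4 against 4 allow, and 0.0571 after adjustment over the 4 ratios tested. Pgf, placental growth factor, rose from 0 to 5 counts per vehicle library to 9 to 44 per LPS library (log2 fold 4.11, adjusted p = 4.52e-04, edgeR). Vegfc was too low for the test, with 0 to 5 counts per vehicle library and 8 to 47 per LPS library. It was higher in 4 of 4 replicate numbers. Vegfd did not exceed 2 counts in any library.

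Among Vegfa's receptors, Kdr, the main signalling receptor, did not pass the test, at 12.3 ± 6.12 CPM in vehicle and 20.7 ± 8.66 CPM in LPS libraries (SD, n = 4; log2 fold 0.75, adjusted p = 0.110, edgeR). Flt1 rose from 48.6 ± 23.6 to 165 ± 52.9 CPM (SD, n = 4; log2 fold 1.77, adjusted p = 0.00253, edgeR), while Nrp1, a co-receptor, fell from 451 ± 120 to 31.4 ± 10.0 CPM (log2 fold -3.84, adjusted p = 4.27e-06, edgeR). The summed endothelial markers, Kdr included, lay higher in LPS libraries beside Flt1, and their part in it was not tested. Nrp2, the sister co-receptor, had a log2 fold of 0.64 (adjusted p = 0.00143, edgeR) that turned to -0.03 with library totals alone. Genes of the hypoxia response, of which Vegfa is a known target, were taken as context. Of the 13 tested, 11 were higher and 2 lower, at a median log2 fold of 3.21, beside 30.3% higher and 33.8% lower of all tested genes. The higher ones included Adm at 5.75, Pfkfb3 at 5.60, Bnip3, which an opposite-strand gene covers in part, at 4.92 and Slc2a1 at 4.33, as well as Hif1a itself at 2.75 (adjusted p = 1.34e-05, edgeR), and Epas1 fell, at a log2 fold of -3.45. The part of this response in the Vegfa values was not tested.

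Hbegf (ENSMUSG00000024486, chromosome 18, 36504927 to 36515805, minus strand) binds the EGF receptor and ERBB4. Its level was 2.91, 3.25, 1.40 and 2.38 CPM in vehicle replicates 1 to 4 and 6.22, 5.34, 6.86 and 5.41 CPM in LPS replicates 1 to 4, with no overlap between the groups. The mean rose from 2.48 ± 0.809 to 5.96 ± 0.722 CPM (SD, n = 4), which gave a log2 fold of 1.26 (SE 0.26, adjusted p = 0.00206, edgeR) or 2.40-fold. The counts were 44 to 94 per vehicle library and 98 to 147 per LPS library. With library totals alone the log2 fold was 0.57 (adjusted p = 0.0791, edgeR), and the call was lost there but kept in the other 15 alternatives.

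Tgfa (ENSMUSG00000029999, chromosome 6, 86195223 to 86275719, plus strand), a ligand of the same receptor, went the other way. It was measured at 3.75, 7.58, 2.63 and 7.56 CPM in vehicle replicates 1 to 4 and at 0.838, 0.926, 0.233 and 1.14 CPM in LPS replicates 1 to 4. Every LPS library lay below every vehicle library, and vehicle replicates 2 and 4 were higher than 1 and 3. The log2 fold was -2.79 (SE 0.50, adjusted p = 8.49e-04, edgeR), a 6.90-fold lower level. The LPS values rest on 5 to 21 counts per library.

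The vehicle libraries with the most Tgfa also held the most Pdgfra, Olig1 and Olig2. These are markers of oligodendrocyte precursor cells (OPC), cells that share the mixed culture. Pdgfra stood at 2.84, 16.7, 0.381 and 14.9 CPM, Olig1 at 7.56, 13.8, 2.06 and 13.7 CPM and Olig2 at 3.36, 6.75, 0.888 and 6.75 CPM in vehicle replicates 1 to 4, with replicate 3 lowest in all. In LPS replicates 1 to 4, Olig2 stood at 0.838, 0.436, 0 and 0.974 CPM. The groups overlapped for Pdgfra, Olig1 and Olig2, and Pdgfra was not called (adjusted p = 0.0891, edgeR). Cspg4, an OPC marker that was lower after LPS, was highest in vehicle replicate 1, at 24.0, 12.6, 11.5 and 13.3 CPM in vehicle replicates 1 to 4. Over the whole list of 10 OPC markers, 8 were tested, 3 were lower and 1, Vcan, was higher. Their summed level was 28.9 to 151 CPM in vehicle and 65.2 to 145 CPM in LPS libraries. Vcan made up the larger part of every LPS sum, at 37.2 to 104 CPM, against 5.52 to 21.8 CPM in vehicle libraries. In replicate 3, where Pdgfra, Olig1 and Olig2 were lowest, the log2 difference of Tgfa was -3.04, beside -2.04 to -2.90 in the other replicate numbers. The replicate 3 value rests on 5 Tgfa counts in the LPS library. In replicate 3 the log2 differences of the markers were -1.002 for Pdgfra, -3.88 for Olig1 and -3.30 for Olig2. Without both libraries of replicate 3, the log2 fold of Tgfa was -2.61 (adjusted p = 3.32e-04, edgeR). The part of OPC, or of other cells of the mixed culture, in the Tgfa values was not tested.

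**Figure D2:**
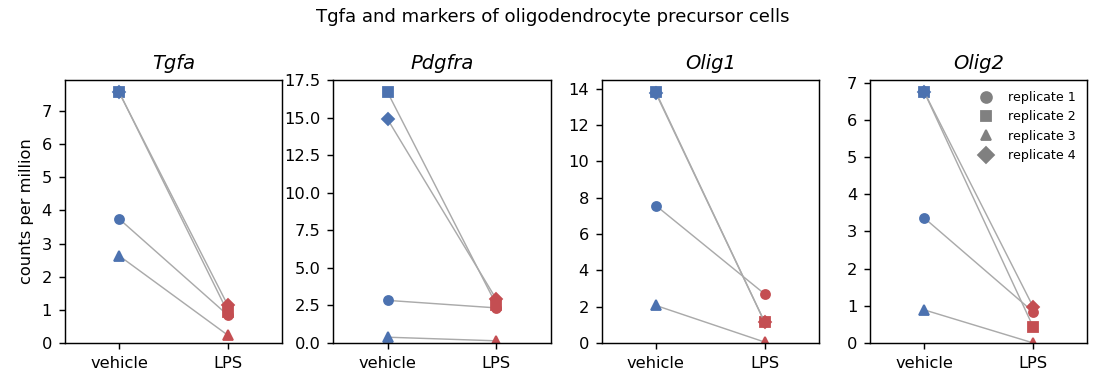
CPM (linear scale from 0) of Tgfa and of 3 OPC markers in each library, where lines join the vehicle (blue) and LPS (red) libraries of the same replicate number. Tgfa fell in all 4, from 2.63 to 7.58 CPM down to 0.233 to 1.14 CPM, and vehicle replicates 2 and 4 are the highest in all 4 panels. The summed astrocyte and neuron markers, not drawn, were highest in these 2 vehicle libraries as well.

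Within a library, Hbegf had 0.777, 0.431, 0.533 and 0.316 counts per Tgfa count in vehicle replicates 1 to 4 and 7.21, 5.63, 26.8 and 4.67 in LPS replicates 1 to 4. Tgfa was thus the more counted of the 2 ligands in every vehicle library and Hbegf in every LPS library. The log2 ratio rose by 4.12 (exact permutation p = 0.0286, 0.0571 after adjustment over the 4 ratios). A ratio within a library does not depend on how libraries are scaled to each other.

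**Figure D3:**
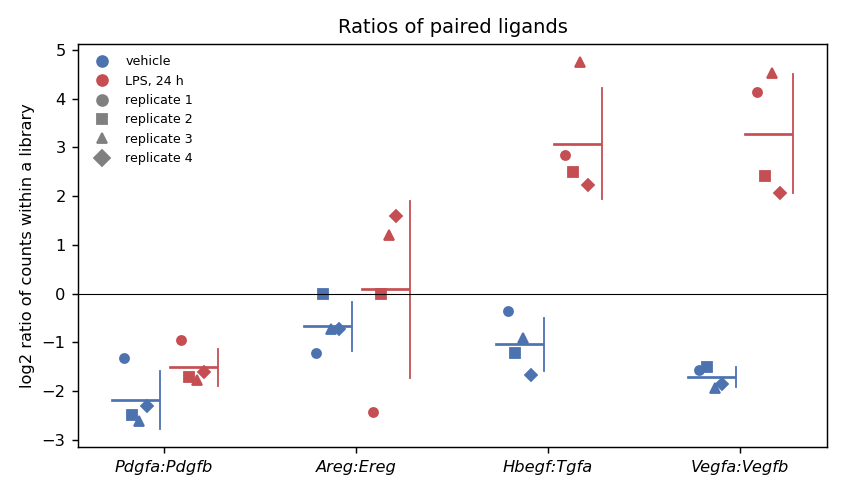
Log2 ratio of the counts of 2 ligands within each library (0.5 added to each count), for 4 pairs in vehicle (blue) and LPS (red) libraries, where horizontal bars give the mean and vertical bars the SD. Hbegf to Tgfa rose by 4.12 and Vegfa to Vegfb by 5.00 without overlap, while the groups overlap for Pdgfa to Pdgfb and Areg to Ereg.

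Areg (ENSMUSG00000029378, chromosome 5, 91139599 to 91148432, plus strand) and Ereg (ENSMUSG00000029377, chromosome 5, 91074622 to 91093646, plus strand) are EGF receptor ligands in a cluster with Epgn and Btc. Both were barely detected. Areg had 1, 0, 1 and 1 counts in vehicle and 2, 1, 19 and 1 in LPS replicates 1 to 4, and LPS replicate 3 held most of its reads. Ereg had 3, 0, 2 and 2 counts in vehicle and 13, 1, 8 and 0 in LPS replicates 1 to 4. When no filter was applied, Areg reached a log2 fold of 3.23 (adjusted p = 0.0276, edgeR), but 1.35 (adjusted p = 0.372, edgeR) without LPS replicate 3, and Ereg reached 2.19 (adjusted p = 0.114, edgeR). A difference of either gene was not detectable at this depth beyond single libraries. Their log2 ratio differed between the groups by 0.76 (exact permutation p = 0.486).

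The receptor of these ligands, Egfr, was itself too low for a test, with 41 counts in all vehicle and 15 in all LPS libraries. Erbb4, which also binds Hbegf, stood at 7.39 ± 3.55 CPM in vehicle and 3.25 ± 2.19 CPM in LPS libraries (SD, n = 4; log2 fold -1.19, adjusted p = 0.0646, edgeR) and was lower in 4 of 4 replicate numbers without passing the test. Among vehicle libraries Erbb4 was lowest, at 2.70 CPM, in the one that was lowest for Pdgfra, Olig1 and Olig2. The part of other cells in its values was not tested. Erbb3 rose from 1.37 to 3.36 CPM (log2 fold 1.29, adjusted p = 0.00706, edgeR), and this call was lost with library totals alone. Among 17 genes of ligand shedding and processing, 15 were tested, 4 were higher and 5 lower, and the median log2 fold was -0.33. Rhbdf2, which carries the sheddase ADAM17 to the cell surface, rose from 63.3 ± 11.4 to 365 ± 94.6 CPM (SD, n = 4; log2 fold 2.53, SE 0.23, adjusted p = 1.03e-05, edgeR), whereas its paralogue Rhbdf1 fell (log2 fold -2.07, adjusted p = 0.00145, edgeR). Adam17 fell from 424 to 284 CPM (log2 fold -0.58, adjusted p = 0.00128, edgeR) and Adam10, another sheddase, from 360 to 180 CPM (adjusted p = 6.61e-05, edgeR). Adam8, a macrophage metalloprotease, rose from 1127 to 3477 CPM (log2 fold 1.63, adjusted p = 9.85e-06, edgeR), and Plau, the plasminogen activator urokinase, fell by 3.84 on the log2 scale (adjusted p = 1.91e-06, edgeR).

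Pdgfb (ENSMUSG00000000489, chromosome 15, 79995874 to 80014977, minus strand) encodes the B chain that recruits pericytes through PDGFRB. It was the second highest member per length in every vehicle library. Its level was 36.6, 58.2, 57.2 and 58.7 CPM in vehicle replicates 1 to 4 and 29.6, 44.8, 47.6 and 46.8 CPM in LPS replicates 1 to 4. Both libraries of replicate 1 lay below the others of their group, and the groups overlapped. The log2 fold was -0.32 (SE 0.19, adjusted p = 0.168, edgeR). With the replicate number as a block the log2 fold was -0.32 (SE 0.10) and the adjusted p 0.0229 (edgeR), and within replicate numbers the log2 differences were -0.30, -0.38, -0.26 and -0.33.

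Pdgfa (ENSMUSG00000025856, chromosome 5, 138976014 to 138997370, minus strand) encodes the A chain, a mitogen of OPC that acts through PDGFRA. Its level was 14.7, 10.4, 9.32 and 11.9 CPM in vehicle replicates 1 to 4 and 15.2, 13.6, 13.9 and 15.3 CPM in LPS replicates 1 to 4. Vehicle replicate 1 lay within the range of the LPS libraries and the other 3 below it. The log2 fold was 0.33 (SE 0.15, adjusted p = 0.0874, edgeR), and with library totals alone it was -0.35 (adjusted p = 0.0911, edgeR), so the direction depends on the scaling. Without vehicle replicate 1, Pdgfa was called at a log2 fold of 0.50 (adjusted p = 0.0123, edgeR) and Pdgfb at -0.43 (adjusted p = 0.0372, edgeR). An annotated antisense gene, 6330403L08Rik, covers 26.1% of the exonic bases of Pdgfa, and its own counts were 242 to 353 per vehicle library and 34 to 65 per LPS library. The use of strand in counting is not stated, so reads of both genes may be mixed in the Pdgfa value.

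Within a library, the log2 ratio of Pdgfa to Pdgfb was -2.18 ± 0.59 in vehicle and -1.52 ± 0.38 in LPS libraries (SD, n = 4), a difference of 0.66 (exact permutation p = 0.114, 0.152 after adjustment). The other tested ligand of this family, Pdgfc, fell from 8.86 ± 2.37 to 1.19 ± 0.366 CPM (SD, n = 4; log2 fold -2.88, SE 0.29, adjusted p = 2.15e-05, edgeR). The receptor Pdgfrb stood at 0.684 CPM in vehicle and 0.329 CPM in LPS libraries (adjusted p = 0.0805, edgeR).

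**Figure D4:**
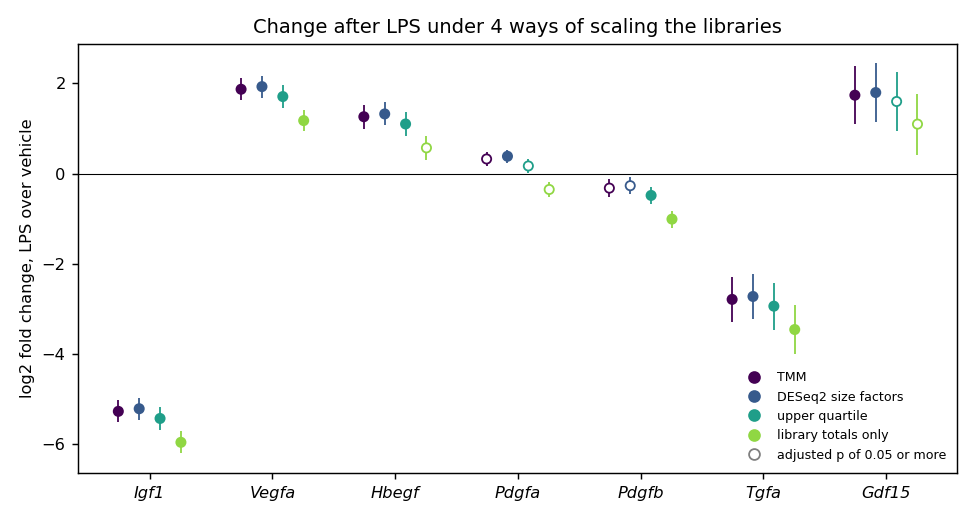
Log2 fold of LPS over vehicle for the 7 tested members from edgeR under 4 ways of scaling libraries, with SE as error bars and open symbols for an adjusted p of 0.05 or more. Igf1 and Tgfa are below 0 and Vegfa above 0 under each scaling with an adjusted p under 0.05, while Pdgfa goes from 0.33 with TMM to -0.35 with library totals alone.

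Bdnf (ENSMUSG00000048482, chromosome 2, 109674700 to 109727007, plus strand), a neurotrophin, had 2, 0, 0 and 2 counts in vehicle and 1, 1, 0 and 0 counts in LPS replicates 1 to 4. A count of 0 allows up to 3 counts in a library, so a difference between the groups was not detectable at this depth. Of the neurotrophin receptor genes, Ntrk2, which encodes TrkB, stood at 4.36 ± 2.40 CPM in vehicle and 2.19 ± 1.39 CPM in LPS libraries (SD, n = 4; adjusted p = 0.165, edgeR) and did not pass the test. Among vehicle libraries Ntrk2 was lowest, at 1.30 CPM, in the one that was lowest for Pdgfra, Olig1 and Olig2. The part of other cells in its values was not tested. Sort1, sortilin, which binds pro-BDNF, fell from 169 ± 37.3 to 5.29 ± 2.74 CPM (SD, n = 4; log2 fold -5.01, SE 0.34, adjusted p = 1.85e-06, edgeR), and Ngfr, the p75 receptor, went from 1.18 to 0.259 CPM with overlap between the groups (log2 fold -2.23, adjusted p = 0.0254, edgeR). Over 19 receptor genes, 14 were tested, 3 were higher and 5 lower, and the median log2 fold was -1.01. With library totals alone, 1 was higher and 10 were lower.

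Gdf15 (ENSMUSG00000038508, chromosome 8, 70629393 to 70632456, minus strand) was called in the fewest alternatives of the 5 called members. Its level was 0.770, 1.66, 1.36 and 1.99 CPM in vehicle replicates 1 to 4 and 3.23, 6.21, 0.653 and 9.30 CPM in LPS replicates 1 to 4. LPS replicate 3 lay below all vehicle libraries and the other 3 above them. The mean was 1.45 ± 0.518 in vehicle and 4.85 ± 3.74 CPM in LPS libraries (SD, n = 4), with a log2 fold of 1.74 (SE 0.64, adjusted p = 0.0374, edgeR). Without LPS replicate 3 the log2 fold was 2.12 (adjusted p = 0.00192, edgeR). It was called in 8 of 16 alternatives, at log2 folds from 1.10 to 2.16 over all 16. The call was lost without any single vehicle library (adjusted p = 0.0505 to 0.0862, edgeR) and without LPS replicate 2 (0.0828) or LPS replicate 4 (0.128).

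Genes of the integrated stress and p53 responses, pathways that are known to induce Gdf15, were taken as context. Of the 15 tested, 12 rose and 1 fell, at a median log2 fold of 2.24, beside 30.3% higher and 33.8% lower of all tested genes. Nupr1 rose by 4.97 on the log2 scale, Trib3 by 4.54, Ddit3 by 3.10 and Atf4 by 2.24, each without overlap between the groups, and Chac1 rose by 2.83 (adjusted p = 1.42e-04, edgeR). Nupr1, Trib3, Ddit3 and Atf4 were thus higher in LPS replicate 3 as well, where Gdf15, at 0.653 CPM, lay below all vehicle libraries. The part of these responses in the Gdf15 values was not tested. Trp53, the gene of p53 itself, fell from 45.0 to 17.4 CPM (log2 fold -1.37, adjusted p = 1.56e-05, edgeR). The receptor of GDF15, Gfral, had 0 counts in every library, which allows up to 3 counts in each.

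Genes that feed back on receptor tyrosine kinase signalling moved in both directions. Of the 15 tested, 6 were higher and 4 lower, and the median log2 fold was 0.21. Dusp5, a phosphatase of ERK, rose by 4.90 on the log2 scale (adjusted p = 1.05e-07, edgeR), though an opposite-strand gene covers part of it. Errfi1, an inhibitor of the EGF receptor, rose by 2.14 (adjusted p = 7.98e-06, edgeR), and Dusp6 rose by 1.60 (adjusted p = 4.69e-06, edgeR). Lrig1 and Lrig3, transmembrane regulators of receptor tyrosine kinases, had log2 folds of -1.75 (adjusted p = 0.0253, edgeR) and -2.49 (adjusted p = 0.00165, edgeR). With library totals alone, 4 of the 15 were higher and 5 lower.

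**Figure D5:**
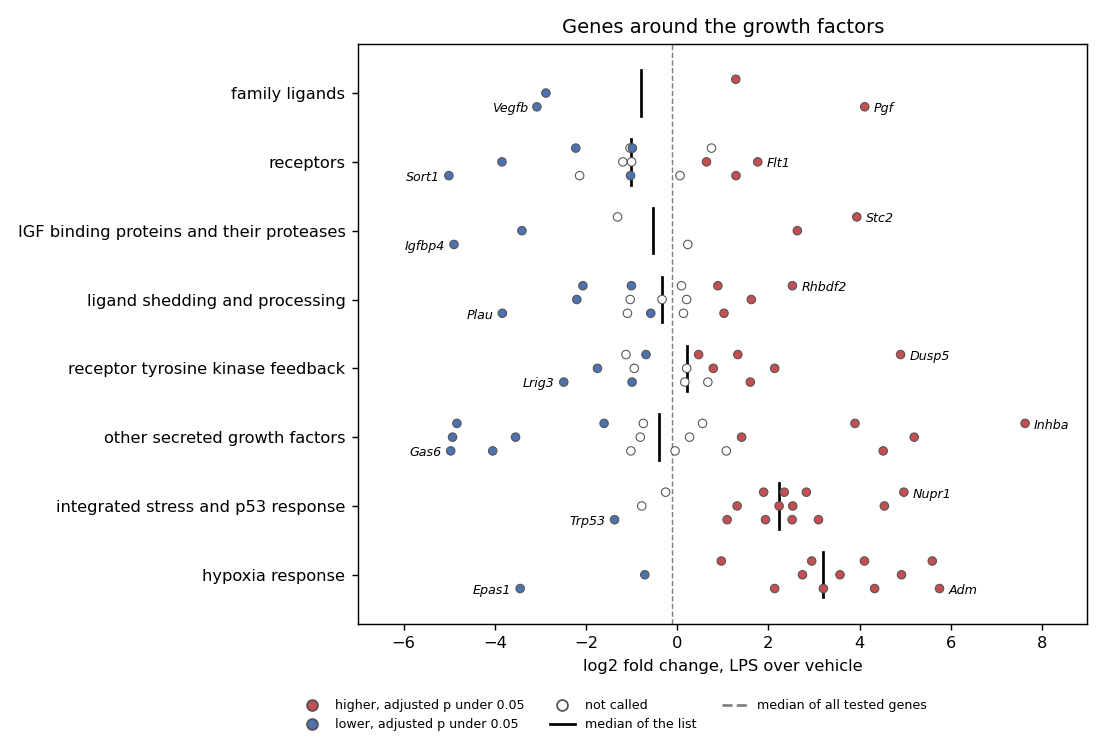
Log2 fold of LPS over vehicle of each tested gene in 8 lists around the growth factors, where colours give the call at an adjusted p under 0.05 (edgeR), black bars the list median and the dashed line the median of all tested genes at -0.11. The hypoxia list (median 3.21) and the stress list (median 2.24) lie to the right, and the receptors (median -1.01) to the left.

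The genes whose log2 CPM followed each member most closely over the 8 libraries are given as a description, since all 8 points share the same 2 groups. They were Anks6 for Igf1 (Pearson r = 0.999), Ginm1 for Vegfa (r = 0.992), Ankrd52 for Tgfa (r = 0.991) and Msantd2 for Hbegf (r = 0.985). For the members with smaller or uneven changes they were Tyms for Pdgfb (r = 0.984), Cdt1 for Gdf15 (r = 0.985) and Me1 for Pdgfa (r = 0.943).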

How the data were processed

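The 8 RNA libraries were sequenced in single-end reads of 50 bases. The labels and the study name different library kits and sequencers. Per Ensembl gene the authors counted reads that GSNAP placed at 1 site of GRCm38 (HTSeqGenie pipeline), and these raw counts were deposited without normalization. The annotation release and use of strand are not given in the sources used here. All 8 columns match a sample by name, and symbols, positions and lengths were taken from GENCODE vM21.

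The members and gene lists were chosen with earlier results of these data known. Named genes are all members, the list genes with large changes past the threshold, and the genes most like each member. The whole table was fitted with edgeR 4.0.16 in R 4.3.3 (TMM, filterByExpr at 10 counts and 15 in total, quasi-likelihood test, two-sided, Benjamini-Hochberg adjustment over all tested genes, threshold 0.05). Log2 folds within a replicate number used CPM + 0.1. TPM was computed from the exonic length. Ratios were tested by two-sided exact permutation over 70 divisions. DESeq2 1.42.0 was an alternative fit. Tables used Python 3.11.15. The fits were tested on simulated data.

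Same-numbered libraries deviated together, with correlations of 0.361, 0.183, 0.183 and 0.130 over 8382 genes, and were treated as pairs in the fit with a replicate block. The labels give the numbers and nothing states that they share a culture. The same numbers had the highest mean correlation of the 24 pairings, 0.214, with the next at 0.210. No pair of replicates agreed within sampling noise. Intervals and limits from counts cover counting error only.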

Additional observations from a re-analysis of the deposited data

Results flagged for a closer look

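Of 92 groups of 4 libraries, 16 held a library that stood apart from the other 3 by Dixon's test, where chance flags about 1 in 20. Among the growth factors, Pdgfb was low in vehicle replicate 1 (36.6 CPM, others 57.2 to 58.7) and in LPS replicate 1 (29.6 CPM, others 44.8 to 47.6). Areg had 0 CPM in vehicle replicate 2, which is a difference of 1 count from the others, and 0.886 CPM in LPS replicate 3, against at most 0.120 in the others.

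LPS replicate 3 also stood apart in list genes, with Flt1 at 86.3 CPM, Rhbdf2 at 224 CPM, Lrig3 at 0.746 CPM, Inhba at 114 CPM and Hgf at 1.91 CPM. LPS replicate 1 did so with Sort1 at 9.40 CPM, Lif at 12.99 CPM and Ddit3 at 89.8 CPM. In vehicle libraries, Vegfb stood at 26.5 CPM in replicate 4, Igfbp5 at 4.09 CPM in replicate 3, and Ngfr at 2.31 CPM and Errfi1 at 14.4 CPM in replicate 1.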

How the results depend on the processing

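Igf1, Vegfa and Tgfa kept their direction and call in every alternative that tested them (Tgfa was not tested under a filter of 10 or more counts per library). The number of members called lay between 4 and 6 over all alternatives. With library totals alone, an alternative added after seeing the data, Pdgfa reversed to -0.35, the calls of Hbegf (0.57) and Gdf15 (1.10, adjusted p = 0.162, edgeR) were lost and Pdgfb was called at -1.01. The share of calls that were higher was 47.2% with TMM and 19.0% with library totals. Under a filter of 10 or more counts per library, 1 gene of the IGF binding protein list was called in place of 4, and 4 in place of 11 other secreted growth factors, since fewer genes were tested. Leaving out 1 library moved the log2 difference of Hbegf to Tgfa between 3.56 and 4.40. It moved that of Vegfa to Vegfb between 4.59 and 5.41 and that of Pdgfa to Pdgfb between 0.48 and 0.95. Without vehicle replicate 1 the values were 4.34, 5.05 and 0.95, and all 3 were past the threshold (exact permutation, adjusted p = 0.0381). The unadjusted permutation p of Hbegf to Tgfa and of Vegfa to Vegfb was 0.0286 with and without that library. Their adjusted p fell only because Pdgfa to Pdgfb reached 0.0286 as well. Gdf15 lost its call without any 1 vehicle library or LPS replicate 2 or 4 (highest adjusted p = 0.128, edgeR), and with upper quartile scaling (0.0562). Upper quartile scaling also called Pdgfb (-0.48). DESeq2's size factors called Pdgfa (0.39, adjusted p = 0.0440, edgeR), as did its Wald test (0.0343). The replicate block called Pdgfb at -0.32 (adjusted p = 0.0229, edgeR) and changed no other member's call. Depth limits Areg, Ereg and Bdnf.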

Other observations

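Of 20 other secreted growth factors, 18 were tested, 5 were higher and 6 lower. Inhba, which encodes the activin A subunit, rose from 0.176 to 36.4 CPM on average (log2 fold 7.63, adjusted p = 6.02e-04, edgeR), with most of it in LPS replicate 3. Clcf1, a cytokine of the CNTF receptor, rose by 4.52 on the log2 scale (adjusted p = 6.20e-07, edgeR), and Gdnf, a neurotrophic factor, rose from 0.553 ± 0.234 to 8.30 ± 2.77 CPM (SD, n = 4; log2 fold 3.90, adjusted p = 1.65e-05, edgeR). Gas6 and Pros1, the bridging ligands of the TAM receptors in uptake of dead cells, fell from 875 ± 133 to 28.0 ± 14.3 CPM and from 139 ± 15.6 to 8.39 ± 1.70 CPM (SD, n = 4; log2 folds -4.97 and -4.05, adjusted p = 5.95e-06 and 1.47e-07, edgeR). Hgf and Bmp2 fell as well, with log2 folds of -4.93 and -4.83. Tgfb1 (161 CPM in vehicle, 156 in LPS) and Grn (2540 and 3065 CPM) did not pass the test.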
